A study of Homo sapiens with 4 samples.

Results

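Interferon-stimulated genes are the genes that cells switch on when interferon reaches them. Here 41 of them were followed through 4 two-colour oligo-microarrays of squamous carcinoma cells. They were chosen by symbol, with earlier results of these data known. Of the 41 symbols, 40 were carried by spots of the array, out of 30982 gene names in all. XAF1 was absent under that name and was skipped. FaDu, a line derived from hypopharyngeal squamous cell carcinoma, and HSC3, a line derived from tongue squamous cell carcinoma, were each transfected with miR-489 or with miR-504, and RNA was taken 72 h later. Cy5 marked the RNA of each transfectant and Cy3 the RNA of its line after transfection of a control miRNA, so that FaDu with miR-489, FaDu with miR-504, HSC3 with miR-489 and HSC3 with miR-504 had 1 array each. All hybridised RNAs thus came from cells that had received a synthetic RNA by lipid transfection, the controls included, and an untransfected culture was not analysed here. Each line is a single established culture, and the labels do not say whether the 2 control RNAs of a line were 1 preparation.

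Type I interferons bind a cell surface receptor whose kinases phosphorylate STAT2. It joins the complex ISGF3, which also holds IRF9 and binds a short element in the promoters of its target genes. Cytoplasmic sensors of double-stranded RNA start the production of interferon, and several of these sensors are themselves interferon-stimulated. The products of the target genes detect foreign RNA, block its translation, degrade it, tag proteins with the ubiquitin-like protein ISG15, or stop virus entry and release.

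The transfected miRNAs and the promoter element are shown first. The comparisons below set these RNAs against each other over genes of which many, not all, had a match to the element. Below are the mature sequences from RefSeq on GRCh38.p14, with the seed (bases 2 to 8 from the 5′ end) in capitals. The labels do not name the arm of miR-504, so both are given. The seeds differ from each other.
hsa-miR-489-3p: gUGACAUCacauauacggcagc
hsa-miR-504-5p: aGACCCUGgucugcacucuauc
hsa-miR-504-3p: gGGAGUGCagggcaggguuuc

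The core of the interferon-stimulated response element, GAAANNGAAA, was searched on both strands in the 300 bases around each gene start given by RefSeq (GRCh38.p14), where 32 of the 40 genes were found. It was present in 20 of the 32 promoters (62.5%) and in 1255 of 35116 promoters of the same length (3.57%). Shown here are windows of 30 bases on the strand of the gene, with the match in capitals; a match on the opposite strand reads as the reverse complement. IFIT1, IFIT3, HERC5 and RTP4 are shown as examples of genes over 3-fold apart between the FaDu arrays. MX1, BST2, ISG20 and IFITM1 are shown because both dyes were over 2-fold apart between the HSC3 arrays. IFI44L was also over 3-fold apart in FaDu and had a match, but is not shown. IFIT2, OASL and MX2 were not among the 32 promoters.
IFIT1 (chr10:89392510-89392539, plus strand): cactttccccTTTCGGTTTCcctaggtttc
IFIT3 (chr10:89327865-89327894, plus strand): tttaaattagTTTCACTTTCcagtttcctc
HERC5 (chr4:88457035-88457064, plus strand): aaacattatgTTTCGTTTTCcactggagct
RTP4 (chr3:187368357-187368386, plus strand): accgaacaccGAAACTGAAActgtttgtct
MX1 (chr21:41420559-41420588, plus strand): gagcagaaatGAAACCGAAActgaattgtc
BST2 (chr19:17405735-17405764, minus strand): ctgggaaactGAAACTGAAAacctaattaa
ISG20 (chr15:88638937-88638966, plus strand): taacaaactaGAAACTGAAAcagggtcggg
IFITM1 (chr11:314024-314053, plus strand): acacttctgaGAAACTGAAAcgacagggga

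A match is a description of the letters in this window, not a measured binding site. RSAD2, DDX58, IFI16 and STAT2 had no match in theirs. Genes with the match and genes without it had similar medians in the comparison of the miRNAs described below. In FaDu the median was −0.41 over 20 genes with the match and −0.38 over 12 without it. In HSC3 it was 0.16 over 20 genes and 0.23 over 11.

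Levels are given as log2 ratios of Cy5 over Cy3 after subtraction of the local background, with the median of each array set to 0, so that a negative value is less RNA in the miRNA transfectant. The arrays held 43376 spots of 41000 probes, of which 58.2% to 59.3% were well above background in Cy3 and 61.2% to 62.6% in Cy5, and replicate spots of 1 probe had a standard deviation of 0.0874 to 0.0996 on the log2 scale. This spread covers technical error within an array. With 1 array per condition no value has a biological replicate, no comparison within a line was tested, and precision is limited by the number of arrays. The arrays shared 1 slide and 1 scan, and since the dyes were not swapped, a ratio may hold a dye effect of its probe. In RNA of a whole culture, fewer responding cells and less RNA per cell cannot be told apart. Gene names are those of the array, a gene took its brightest probe, and it counted as measured where at least 1 channel was well above background. Of the 8 squamous epithelial markers 7 were found, and all 7 had a Cy3 signal well above background on the 4 arrays. Of 6 leukocyte markers 3 were never well above background in Cy3, including PTPRC, the gene of the pan-leukocyte protein CD45, whereas CD14 and CD68 were so on all 4 arrays, CD68 with scaled signals of 281 to 881. Of 5 fibroblast markers 3 were never and 0 always well above background in Cy3. The part of other cell types in the results was not tested.

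In FaDu 25 of 39 measured members had a log2 ratio below 0 after miR-489, against 53.7% of all genes, whereas after miR-504 27 of 40 were above 0 and 13 below, against 53.1% of all genes below. In HSC3 18 of 39 were below 0 after miR-489, against 54%, and 24 of 39 after miR-504, against 53.6%. The median log2 ratio was −0.23 over 39 measured members on the FaDu miR-489 array and 0.38 over 40 on the FaDu miR-504 array. It was 0.057 over 39 members on the HSC3 miR-489 array and −0.23 over 39 on the HSC3 miR-504 array. The medians of all measured genes were −0.056, −0.041, −0.062 and −0.046 in the same order. With loess the small HSC3 miR-489 median changed sign, to −0.033.

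Few members reached a 2-fold difference from the control on any 1 array. On the FaDu miR-489 array IFI44L, IFIT1, IFIT2, IFIT3 and RTP4 were at least 2-fold lower, which is 5 of 39 members against 8.7% of all measured genes. OAS3 alone was at least 2-fold higher there, against 2.8% of all genes. On the FaDu miR-504 array 0 of 40 members were at least 2-fold lower, against 6.07% of all genes, and HERC5, IFITM1, IFITM2, OASL and TNFSF10 were at least 2-fold higher, which is 12.5% against 2.32%. On the HSC3 miR-489 array 0 of 39 members were lower, against 8.61%, and IFITM2, IFITM3 and OAS3 were higher, against 2.67%. On the HSC3 miR-504 array RTP4 was lower, against 5.37%, and IRF7 was higher, against 1.96%.

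**Figure D1:**
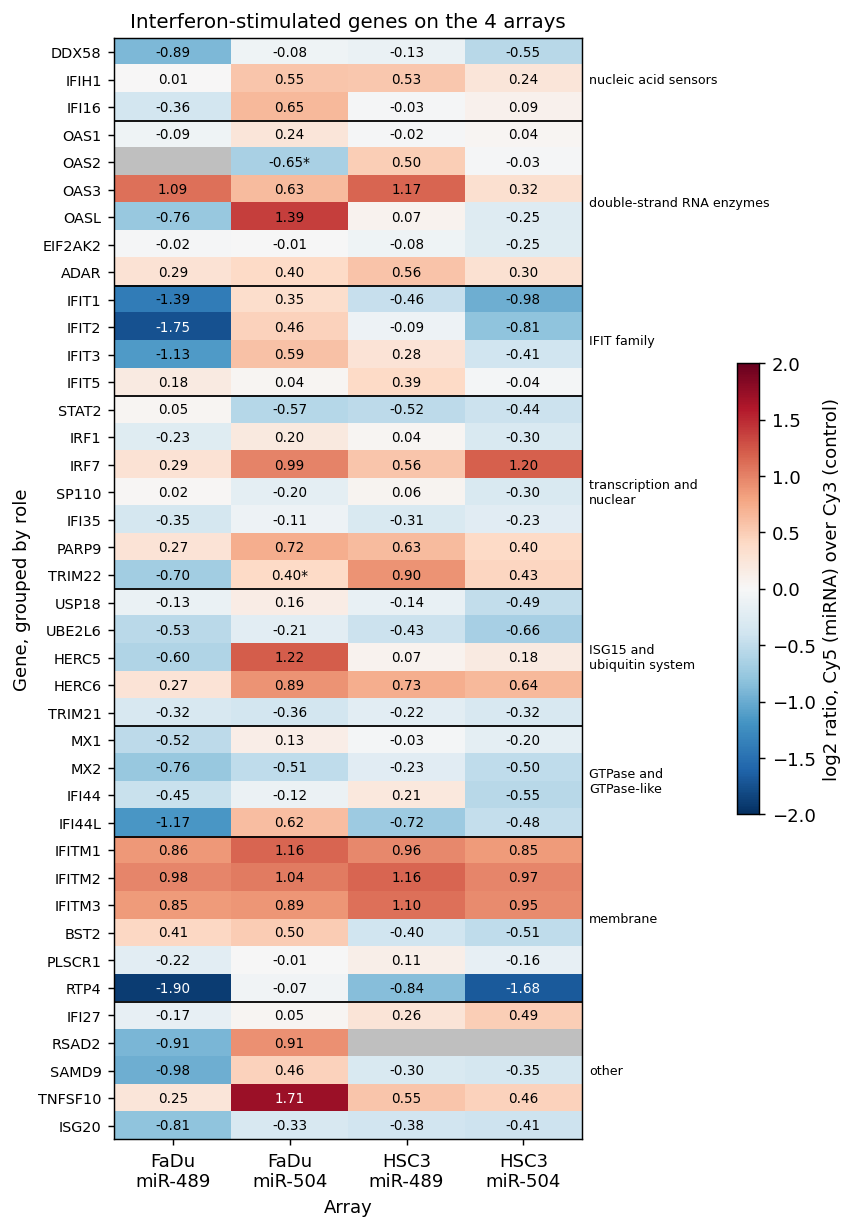
Log2 ratio of Cy5 (miRNA transfectant) over Cy3 (control transfectant) for 40 interferon-stimulated genes (rows, by role) on the 4 arrays (columns); blue is lower and red higher than the control, an asterisk marks a value with 1 channel well above background, and grey a spot with neither. The FaDu miR-489 column reaches −1.90 (RTP4) and the FaDu miR-504 column 1.71 (TNFSF10).

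The direct comparison of the miRNAs took, within each line, the log2 ratio on the miR-489 array minus that on the miR-504 array. In FaDu 34 of 39 members were below 0, with a median of −0.43, while 49.3% of all measured genes were below 0 and their median was 0.0044. In HSC3 31 of 39 members were above 0, with a median of 0.23, against a median of 0.013 over all genes, of which 48% were below 0. In FaDu the miR-489 value was lower by 2-fold or more for 12 of 39 members (30.8%), against 2.77% of all genes, and higher by as much for 0, against 1.1%. In HSC3 0 members were at least 2-fold lower, against 2.01%, and 0 at least 2-fold higher, against 0.747%. Both lines were measured for 38 members. Of these, 26 (68.4%) were lower in FaDu and higher in HSC3, an arrangement held by 18% of all 16937 genes. Another 7 (18.4%) were lower in both lines, against 30.2% of all genes, and 4 (10.5%) were higher in both, against 34.3%. STAT2 alone was higher in FaDu and lower in HSC3, as were 17.4% of all genes. The median gap between the lines over the 38 genes was −0.59 on the log2 scale. It has no test, because each line contributed 1 array per miRNA.

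**Figure D2:**
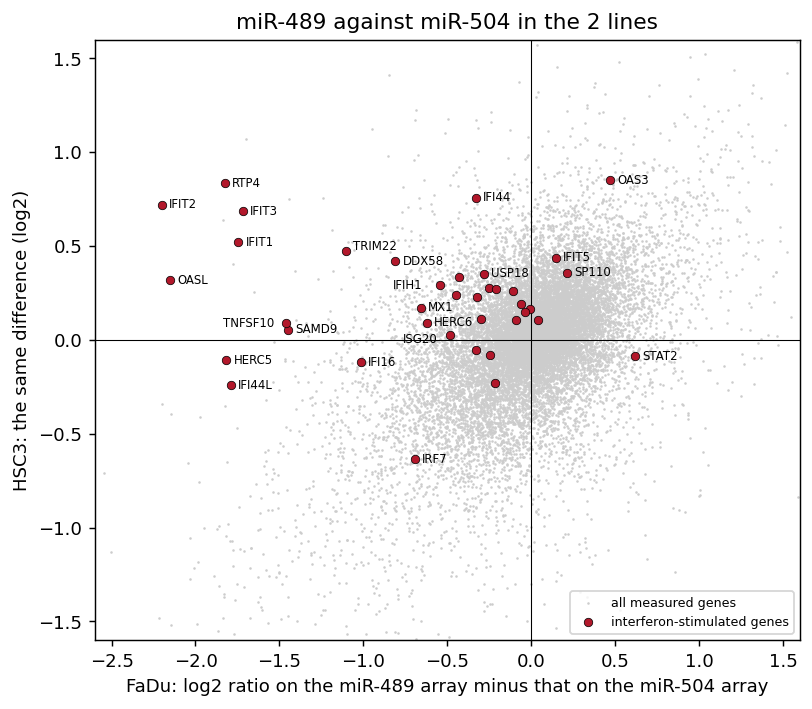
Difference between miR-489 and miR-504 (log2 ratio on one array minus that on the other) in FaDu, horizontal, and in HSC3, vertical; red points are 38 interferon-stimulated genes, grey points all genes measured in both lines, and 76 grey points lie outside the axes. Of the red points, 26 lie in the upper left quadrant, where IFIT2 is farthest to the left at −2.20 in FaDu and 0.72 in HSC3.

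In the IFIT family 3 of 4 members were over 3-fold apart in FaDu, and IFIT2 had the largest difference of all measured members there. IFIT proteins bind viral RNA that lacks the marks of cellular messenger RNA and keep it from the ribosome. The log2 ratios of IFIT2 were −1.75 on the FaDu miR-489 array, 0.46 on the FaDu miR-504 array, −0.09 on the HSC3 miR-489 array and −0.81 on the HSC3 miR-504 array. IFIT2 was therefore 4.60-fold lower after miR-489 than after miR-504 in FaDu and 1.64-fold higher in HSC3. A second IFIT2 probe gave −2.18 in FaDu and 1.12 in HSC3.

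IFIT1 had ratios of −1.39 and 0.35 in FaDu and −0.46 and −0.98 in HSC3, for miR-489 and miR-504 respectively. IFIT3, its binding partner, had ratios of −1.13 and 0.59 in FaDu and of 0.28 and −0.41 in HSC3. Both were more than 3-fold lower after miR-489 than after miR-504 in FaDu, by 1.74 and 1.72 on the log2 scale, and higher in HSC3, by 0.52 and 0.68. IFIT5 stood apart from these 3 relatives, with a difference of 0.15 in FaDu and 0.44 in HSC3. Its second probe gave −0.36 and 0.0040, so the sign in FaDu depended on the probe.

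The log2 ratios of all 3 sensors of nucleic acids were lower on the miR-489 array than on the miR-504 array in FaDu. DDX58, which encodes the RNA sensor RIG-I, differed by −0.81 in FaDu and 0.42 in HSC3. IFIH1, which encodes the RNA sensor MDA5, differed by −0.54 and 0.29. IFI16, a sensor of DNA, differed by −1.01 in FaDu, where its ratios were −0.36 and 0.65, and by −0.12 in HSC3. A second IFI16 probe gave −0.85 in FaDu, below 2-fold in size.

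The enzymes that answer double-stranded RNA did not move as a block. OASL, a relative of the oligoadenylate synthetases that lacks their enzymatic activity and enhances RIG-I signalling, had ratios of −0.76 after miR-489 and 1.39 after miR-504 in FaDu. That is a 4.44-fold difference, whereas in HSC3 its ratios were 0.07 and −0.25. OAS3, which makes the messenger that activates RNase L, was higher after miR-489 than after miR-504 in both lines, by 0.47 and 0.85. Its ratios were 1.09 and 0.63 in FaDu and 1.17 and 0.32 in HSC3. Its second probe gave differences of 0.53 and 0.40, with lower ratios, of 0.41 after miR-489 in FaDu and 0.27 in HSC3. OAS1 differed by −0.33 in FaDu and −0.06 in HSC3. OAS2 was not well above background in either channel on the FaDu miR-489 array and differed by 0.53 in HSC3, where its second probe gave −0.0067. EIF2AK2, the kinase PKR that halts translation, differed by −0.01 and 0.16, and the RNA editing enzyme ADAR by −0.11 and 0.26. A second ADAR probe gave −0.36 and −0.14, so its sign in HSC3 depended on the probe.

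Of 7 transcription factors and nuclear proteins, TRIM22 alone reached 2-fold in FaDu, and the median difference there was −0.43. IRF7, the factor that amplifies interferon transcription, was lower after miR-489 than after miR-504 in both lines, by 0.69 in FaDu and 0.64 in HSC3 on the log2 scale. Its ratios were 0.29 and 0.99 in FaDu and 0.56 and 1.20 in HSC3. A second IRF7 probe differed by −0.30 in FaDu and −1.29 in HSC3, with ratios of another sign on some arrays. That probe was dim in FaDu, with neither channel well above background on the miR-489 array and 1 on the miR-504 array. STAT2, the subunit of ISGF3, differed by 0.62 in FaDu and −0.09 in HSC3 on dim spots, with scaled Cy3 signals of 62.7 to 82.2. TRIM22, a ubiquitin ligase that restricts viral transcription, differed by −1.10 in FaDu, where its Cy3 spot on the miR-504 array was not well above background. With normexp and loess this difference was −0.44, and the second TRIM22 probe gave −0.45. In HSC3 TRIM22 differed by 0.47. IRF1, PARP9 and IFI35 differed by −0.43, −0.45 and −0.24 in FaDu, and the nuclear body protein SP110 by 0.22.

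In the ISG15 system HERC5 led. HERC5, the main ligase that attaches ISG15 to proteins, had ratios of −0.60 after miR-489 and 1.22 after miR-504 in FaDu, a 3.52-fold difference, and of 0.07 and 0.18 in HSC3. HERC6 differed by −0.62 in FaDu, and a second probe gave −1.16. That probe was dim, with FaDu Cy3 signals before scaling of 38 and 23 and 1 channel well above background on the miR-504 array. UBE2L6, the conjugating enzyme for ISG15, and USP18, the protease that removes it, differed by −0.32 and −0.28 in FaDu and by 0.23 and 0.35 in HSC3. TRIM21 differed by 0.04 and 0.10.

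IFI44L, a GTPase-like protein, had ratios of −1.17 and 0.62 in FaDu and −0.72 and −0.48 in HSC3, so it was 3.46-fold lower after miR-489 than after miR-504 in FaDu and also lower in HSC3, by 0.24 on the log2 scale. IFI44, its neighbour, differed by −0.33 in FaDu and 0.76 in HSC3. MX1, a dynamin-like GTPase that traps viral nucleocapsids, differed by −0.66 and 0.17, and MX2 by −0.25 and 0.28.

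Among the membrane proteins RTP4 alone was 2-fold apart in its ratios. IFITM1, IFITM2 and IFITM3, which keep viruses from fusing with cell membranes, had ratios of 0.85 to 1.16 on every array and differed by at most 0.30 in size between the miRNAs in FaDu and 0.19 in HSC3. The lowest of their ratios under other background and normalisation settings was 0.60, that of IFITM3 on the FaDu miR-489 array with loess. They are close paralogues, and hybridisation of one transcript to the probe of another was not tested. RTP4, a chaperone of receptor transport, had ratios of −1.90 and −0.07 in FaDu and −0.84 and −1.68 in HSC3. It was 3.55-fold lower after miR-489 than after miR-504 in FaDu and 1.78-fold higher in HSC3, the widest gap between the lines after IFIT2. With normexp and loess its FaDu difference was −0.97. BST2, which tethers virus particles to the cell, and the scramblase PLSCR1 differed by −0.09 and −0.21 in FaDu.

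Of the remaining genes, TNFSF10, which encodes the death ligand TRAIL, was read on 10 spots. Its ratios were 0.25 and 1.71 in FaDu and 0.55 and 0.46 in HSC3, and the standard deviation of its spots was 0.179 and 0.0774 on the FaDu arrays. SAMD9, a cytoplasmic antiviral factor, had ratios of −0.98 and 0.46 in FaDu and −0.30 and −0.35 in HSC3, and its other 3 probes differed by −1.53, −1.19 and −1.20 in FaDu. RSAD2, which encodes viperin, had ratios of −0.91 and 0.91 in FaDu on a dim spot with scaled Cy3 signals of 60.7 and 52.4, and was not well above background in HSC3. The exonuclease ISG20 differed by −0.48 in FaDu and 0.02 in HSC3. XAF1 has the older symbol BIRC4BP, and the spot listed under that symbol, which the choice of members left out, gave −1.44 in FaDu with 1 channel well above background on each array, and 0.75 in HSC3.

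Of the 12 FaDu differences of at least 2-fold, 8 stayed beyond that limit under all 6 other settings of background, spot summary and normalisation. These were the differences of HERC5, IFI44L, IFIT1, IFIT2, IFIT3, OASL, SAMD9 and TNFSF10. IFI44L and TNFSF10 came closest to the limit, at −1.05 each with normexp and loess. The share of all genes that stayed beyond it was not counted. Of these 8 genes 6 have a single probe, so that the choice of probe could not alter them.

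A ratio can differ between arrays through its miRNA channel or through its control channel, so each channel was then set against the same channel of the other array of the line. Signals were scaled to a common median per channel for this purpose, and the 2 channels were compared as differences on the log2 scale. Over 15726 genes the log2 Cy3 signals of the 2 FaDu controls differed with a standard deviation of 0.277, and over 15732 genes those of the 2 HSC3 controls with 0.357. Most members were higher in the control of the miR-489 array than in that of the miR-504 array. In FaDu 30 of 39 were higher and 9 lower, with a median of 0.23 against 0.019 for all genes, of which 46.9% were lower. In HSC3 35 of 39 were higher and 4 lower, with a median of 0.39 against 0.081 for all genes, of which 39.6% were lower.

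In FaDu both channels contributed. The Cy5 signal was lower after miR-489 than after miR-504 for 26 of 40 members, with a median of −0.22, while 45.7% of all genes were lower and their median was 0.038. Of these 40 members 6 were at least 2-fold lower in Cy5, against 4.56% of all genes, and 0 at least 2-fold higher, against 3.28%. In Cy3 the FaDu controls were at least 2-fold higher on the miR-489 array for DDX58, HERC5 and OASL, against 1.92% of all genes, and at least 2-fold lower for IFI27, against 1.51%.

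For IFI44L, RSAD2, RTP4, TNFSF10 and IFI16 the FaDu controls were nearly level and the difference lay in the miRNA transfectants. TNFSF10 had scaled Cy3 signals of 91.6 and 92.3 in the controls of the miR-489 and miR-504 arrays and scaled Cy5 signals of 163 and 445 in the transfectants. IFI44L had Cy3 signals of 108 and 102 and Cy5 signals of 71.4 and 231. RTP4 had Cy3 signals of 130 and 115 and Cy5 signals of 52.1 and 161. In each of these 3 genes the Cy5 signal after miR-504 was the higher and the Cy3 signals lay within 1.13-fold.

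For IFIT1, IFIT2, IFIT3, OASL and HERC5 both channels differed, in opposite directions, whereas IFIT5 was higher on the miR-489 array by 0.32 in Cy3 and 0.48 in Cy5. IFIT2 had Cy3 signals of 3784 and 2442 in the controls and Cy5 signals of 1688 and 4944 in the transfectants. IFIT1 was higher by 0.80 in the control of the miR-489 array and lower by 0.92 in its miRNA transfectant. OASL was higher by 1.14 in that control and lower by 0.99 in the transfectant, with Cy3 signals of 8002 and 3638. DDX58 and IFI44 were higher on the miR-489 array in both channels, by 1.03 and 0.87 in Cy3 and by 0.24 and 0.56 in Cy5, so their negative ratio differences came with a higher, not a lower, Cy5 signal after miR-489.

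IFI27, a small mitochondrial protein and a common marker of interferon exposure, had the largest difference between controls and almost none in its ratios. In FaDu its scaled Cy3 signal was 2134 on the miR-489 array and 8153 on the miR-504 array, a 3.82-fold gap over 10 spots whose log2 Cy3 signals had standard deviations of 0.145 and 0.143. Its Cy5 signals were 2840 and 12420, a 4.38-fold gap in the same direction. The ratios were therefore −0.17 and 0.05. The second IFI27 probe had Cy3 signals, before scaling, of 1202 and 4526. IFI27 went opposite to OASL, IFIT1 and IFIT2 in the FaDu controls. In HSC3 its Cy3 signals were 18960 and 13560.

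In HSC3 most members were higher on the miR-489 array in both channels. The Cy5 signal was higher after miR-489 than after miR-504 for 37 of 39 members and lower for 2, while 46.8% of all genes were lower. The median was 0.66 against 0.030 for all genes. Of these 39 members 9 (23.1%) were at least 2-fold higher, against 4.56%, and 0 at least 2-fold lower, against 5.42%. In Cy3 BST2, IFITM1, ISG20, MX1, MX2 and OASL were at least 2-fold higher on the miR-489 array, against 2.88%, and 0 at least 2-fold lower, against 1.91%. MX1 had Cy3 signals of 764 and 292 and Cy5 signals of 1077 and 384. ISG20 had Cy3 signals of 1220 and 498 and Cy5 signals of 1348 and 567. IFITM1 had Cy3 signals of 7753 and 3415 and Cy5 signals of 21690 and 9284. For these 3 genes the ratios of the 2 arrays were close although the signals of both dyes differed more than 2-fold.

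Several members kept a difference beyond the controls in HSC3. There IFI44 was higher by 0.90 in Cy3 and 1.59 in Cy5, and IFIT2 by 0.30 and 0.95. RTP4 was higher by 0.20 in Cy3 and 0.97 in Cy5, and IFIT3 by 0.05 and 0.66. OAS3, with the largest ratio difference of the measured members in HSC3, differed by −0.15 in Cy3 and 0.63 in Cy5. IRF7 was level in the HSC3 controls, with Cy3 signals of 2350 and 2318, and lower by 0.68 in Cy5 after miR-489. Whether the array or the control culture set the differences in Cy3 cannot be told apart, and no further control of a line was analysed here.

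**Figure D3:**
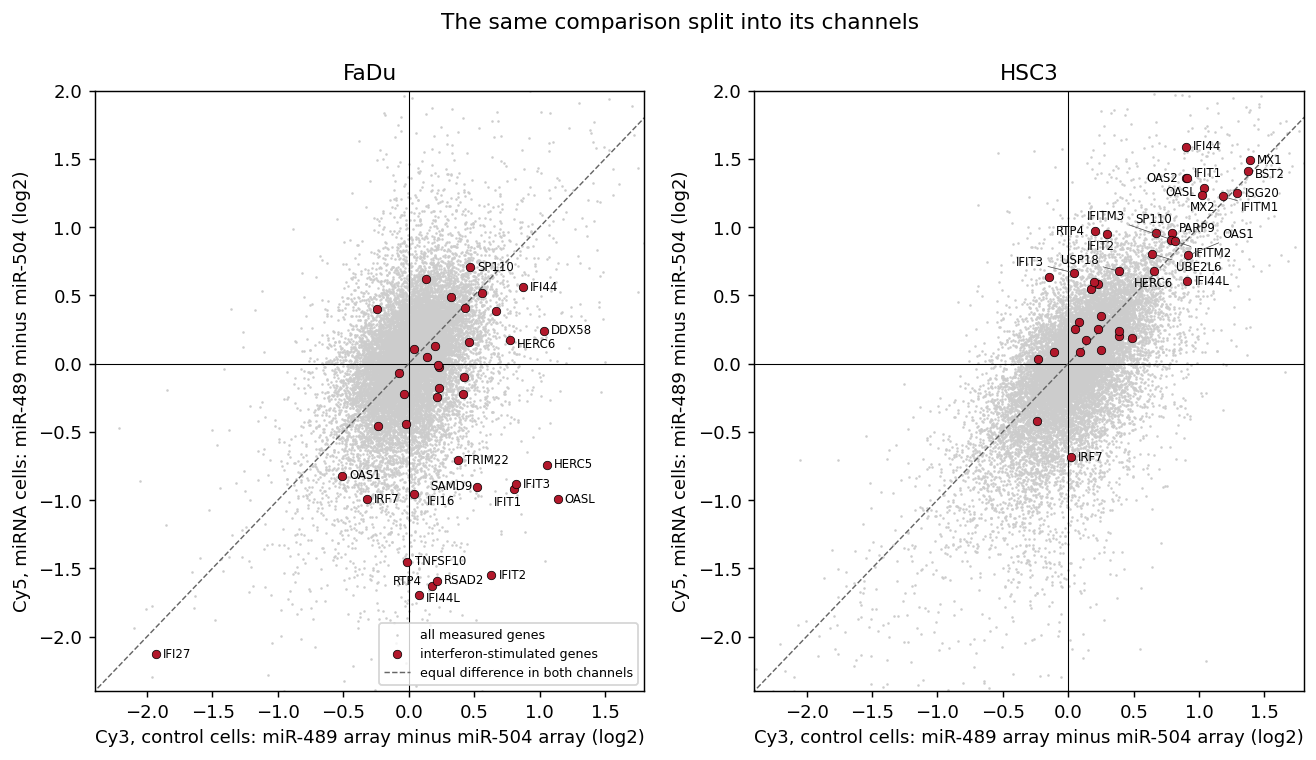
Each channel compared between the 2 arrays of a line (log2, miR-489 array minus miR-504 array): control cells in Cy3, horizontal, and miRNA transfectants in Cy5, vertical, for FaDu (left) and HSC3 (right); red points are interferon-stimulated genes, grey points all measured genes, and 48 and 105 grey points lie outside the axes. On the dashed line both channels differ equally and the ratio does not: IFI27 in FaDu and MX1, BST2 and ISG20 in HSC3 lie near it, while IFIT2, OASL and RTP4 in FaDu lie far below it.

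The levels of many interferon-stimulated genes differed between the control transfectants of the 2 lines, in both directions. Counted were genes at least 2-fold apart with both arrays of one line above both of the other. Of 40 members, 12 were higher in FaDu, against 12.9% of all genes, and 8 were higher in HSC3, against 10.9%, that is 30% and 20% of the members. The 12 were BST2, HERC5, HERC6, IFI44, IFI44L, IFIT1, IFIT2, IFIT3, ISG20, OASL, RSAD2 and SAMD9. The 8 were IFI16, IFI27, IFI35, IFITM1, IFITM2, IFITM3, IRF7 and TRIM22.

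OASL had scaled Cy3 signals of 8002 and 3638 in FaDu and 113 and 55.1 in HSC3, a 68.4-fold gap. BST2 had signals of 1530 and 1334 in FaDu and 80.6 and 31.1 in HSC3, a 28.5-fold gap. HERC5 was 14.2-fold, IFI44 6.14-fold and SAMD9 5.71-fold higher in FaDu. For these genes the spread between the 2 controls of a line was far smaller than the gap between the lines.

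IFITM1 lay the other way, with signals of 965 and 609 in FaDu and 7753 and 3415 in HSC3, a 6.71-fold gap. IFI27 was 3.84-fold higher in HSC3, although the FaDu controls themselves were 3.82-fold apart. IRF7, IFITM2 and IFITM3 were 2.46-fold, 2.48-fold and 2.10-fold higher in HSC3. RSAD2 was at least 2.70-fold higher in FaDu, where the HSC3 spots were not well above background. STAT2 and EIF2AK2 were within 1.04-fold between the lines. MX1 had signals of 512 and 384 in FaDu, which lay between the 764 and 292 of the HSC3 controls.

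**Figure D4:**
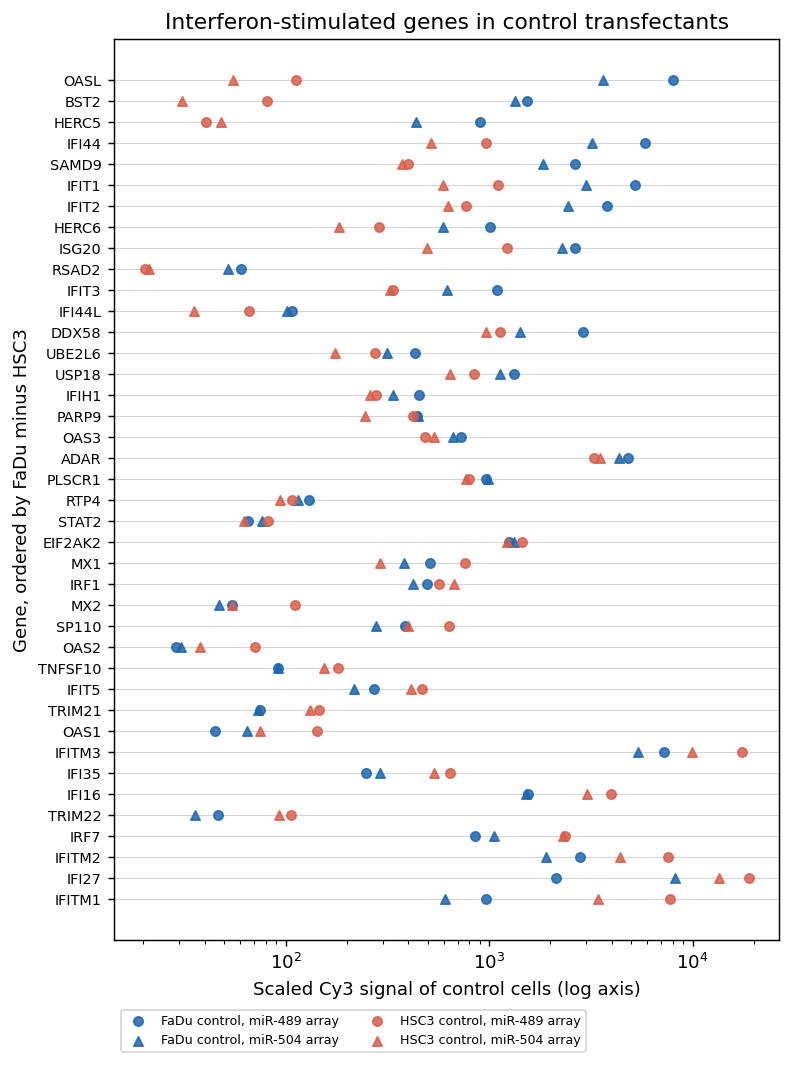
Scaled Cy3 signal (logarithmic axis) of each interferon-stimulated gene in the control transfectants, with FaDu in blue and HSC3 in red, circles for the miR-489 array and triangles for the miR-504 array; genes run from those higher in FaDu (top, OASL) to those higher in HSC3 (bottom, IFITM1). The gap between a blue circle and a blue triangle is widest for IFI27, at 2134 and 8153.

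Taking FaDu and HSC3 as replicates, limma tested miR-489 against miR-504 over 22741 probes and called 0 of them at an adjusted p of 0.05 (0% of the probes), with 38 members among those tested. At an unadjusted limma p under 0.05 there were 3801 probes (16.7% of all) and 2 of the 38 members, OAS3 and IRF7. OAS3 was higher after miR-489 by 0.66 (SE 0.148, limma adjusted p = 0.157) and IRF7 lower by 0.67 (SE 0.152, limma adjusted p = 0.16), each in both lines. With normexp and loess limma called 685 of the 22741 probes and 1 of 38 members. That member was IRF7, with a limma adjusted p of 0.0355. With the lines as replicates, a gene that differs in opposite directions in FaDu and HSC3 adds to the residual spread. With the cell line as a block limma called 96 probes, with 0 members among them.

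The rest of the pathway was read from lists of genes by role, as the difference between the miRNAs. Of the interferon genes themselves 9 of 10 listed were found, and 7 were never well above background in either channel, including IFNB1, the gene of interferon beta. IFNE1 was lower after miR-489 than after miR-504 by 1.48 in FaDu and 1.02 in HSC3 on the log2 scale. IL28A, an interferon lambda gene, differed by −0.87 and 0.34, with Cy5 alone well above background on 3 of the 4 arrays. Of 6 receptor genes 0 were 2-fold apart in either line. Over all genes 2.77% were at least 2-fold lower and 1.1% higher in FaDu, and 2.01% and 0.747% in HSC3. In FaDu the lambda receptor gene IL28RA differed by −0.62, and IL10RB, IFNGR1 and IFNAR1 by 0.46, −0.24 and 0.22. Below the receptors, IRF9 differed by −0.50 in FaDu and 0.10 in HSC3, and the kinase genes JAK2 and TYK2 by −0.68 and −0.03 in FaDu and by −0.13 and −0.40 in HSC3.

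Of 12 listed sensors and adaptors 10 were found and 8 measured in FaDu. Among the 8, 1 was at least 2-fold lower there, against 2.77% of all genes. This was DHX58, which encodes the RIG-I-like protein LGP2, with a difference of −1.57 in FaDu and −0.59 in HSC3. IRF5, IKBKE and TLR3 differed by −0.75, −0.24 and −0.65 in FaDu and by −0.17, −0.74 and 0.24 in HSC3. Of 7 inhibitors of signalling 1 was at least 2-fold lower in each line, against 2.77% of all genes in FaDu and 2.01% in HSC3. In FaDu 1 was at least 2-fold higher, against 1.1% of all genes. PTPN11, the gene of the phosphatase SHP2, was lower by 1.96 in FaDu and 2.18 in HSC3. Its ratios were −3.25 and −1.29 in FaDu and −3.22 and −1.04 in HSC3. The study reports PTPN11 as a direct target of miR-489 and describes it as promoting RAS–MAPK signalling. Its role in interferon signalling was not tested. SOCS1, a feedback inhibitor of the receptor kinases, was 2.21-fold higher after miR-489 in FaDu and differed by −0.14 in HSC3. PTPN2 differed by −0.10 and −0.39 and PIAS1 by 0.26 and 0.30.

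A list of 30 further interferon-stimulated genes, of which 29 were found, was read in the same way. In FaDu 25 were measured, with a median difference of −0.18, and 4 reached a 2-fold lower and 1 a 2-fold higher value, against 2.77% and 1.1% of all genes. In HSC3 26 were measured, with a median of 0.089, and 0 were 2-fold apart, against 2.01% of all genes lower and 0.747% higher. SAMD9L and DDX60 differed by −1.41 and −1.27 in FaDu and by 0.37 and 0.33 in HSC3. CCL5 differed by −1.42 in FaDu, on spots with Cy5 alone well above background, and by −0.11 in HSC3. EPSTI1 differed by 1.12 in FaDu, on a dim spot with scaled Cy3 signals of 60.2 and 38.7, and by 0.54 in HSC3. ISG15, the ubiquitin-like protein itself, had ratios of 0.42 and 0.92 in FaDu and 0.54 and 0.69 in HSC3, and its FaDu controls had scaled Cy3 signals of 25400 and 16760.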

How the data were processed

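The 4 conditions were measured on 1 two-colour Agilent 44K array each. The authors deposited intensities as scanned, not normalised, from Feature Extraction 9.5.3.1, together with 0 or 1 marks (scored here as other values) for background, outliers and saturation, and log10 ratios that the software had normalised; a deposited table of log10 values was identical to these (largest difference 0). Per the study's methods a ScanArray instrument and the DNASIS program were used, with log2 ratios of background-subtracted medians and a global normalisation; the last 2 steps were followed here. The probe's genome build is not given in the sources used here.

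Outlier spots (118 to 137 per array) were dropped, 0 were saturated, signals were floored at the lowest positive signal well above background, log2 ratios were centred by 0.45 to 0.65, and replicate spots were averaged. A gene took its brightest Cy3 probe. Differences of 2-fold were counted without a test. For single channels, signals were centred on genes well above background in that channel on all 4 arrays. limma (lmFit, eBayes, Benjamini-Hochberg at 0.05, 2 residual degrees of freedom) was checked on simulated data. There both lines were given the same shift, so the check does not cover genes that differ in opposite directions between the lines. The groups carry no shared culture numbers. Every member was named, and up to 4 genes of each pathway list with the largest difference, plus IFNB1, IRF9, ISG15 and PTPN11; 1 further gene is not reported here. Members and lists were chosen with earlier results of these data known. Alternatives covered background (normexp, offset 50), normalisation (loess, span 0.3), filters, probe choice, thresholds and left-out arrays. No seed matches were searched. Fits ran in R 4.3.3 with limma 3.58.1 and tables in data.table (version 1.17.8); figures were drawn in Python 3.11.15 by matplotlib 3.10.9.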

Additional observations from a re-analysis of the deposited data

Results flagged for a closer look

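The lines stood on opposite sides of 0 in 3 summaries of the interferon-stimulated genes. The median log2 ratio after miR-489 was lower in FaDu than in HSC3 by a difference of −0.29. After miR-504 it was higher in FaDu than in HSC3, by 0.60. The median difference between miR-489 and miR-504 was −0.66 in FaDu relative to HSC3, taken as the FaDu median minus the HSC3 median. The −0.59 given earlier is instead the median of the gaps gene by gene, over 38 genes measured in both lines. These differences between the lines were not tested, since each rests on 1 array per condition, and the direction after miR-489 in HSC3 changed with the normalisation.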

How the results depend on the processing

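Scaling each array to its total signal moved all ratios by −0.17 to −0.21 on the log2 scale; the median of the members then became −0.44 after miR-489 and 0.21 after miR-504 in FaDu, and −0.12 and −0.41 in HSC3. The HSC3 miR-489 median, 0.057 as reported, also turned negative with loess (−0.033), normexp and loess (−0.029), the deposited log10 ratios (−0.063), the mean of all probes (−0.021) and the second brightest probe (−0.026). With normexp and loess the medians were 0.25 for FaDu miR-504 and −0.11 for HSC3 miR-504, the median difference between the miRNAs in HSC3 was 0.091, and limma called 1 member, IRF7. The second brightest probe gave −0.33 for FaDu miR-489 and 0.17 for FaDu miR-504, and the mean of all probes 0.22 for the latter. Taking the Cy5 signals alone, chosen after seeing the data, the median difference between the miRNAs was −0.22 in FaDu and 0.66 in HSC3. The count of 12 members at least 2-fold lower in FaDu ranged from 9 to 12 over 11 settings, was 16 at 1.5-fold, and was 8 of 31 members with a Cy3 signal of at least 100, a limit chosen after seeing the data. At 4-fold 7 members were higher in the FaDu controls and 1 in the HSC3 controls, and at 1.5-fold 14 were higher in the HSC3 controls. The shares of all genes at these other limits and settings were not counted, so these member counts have no background to be read against. Over all probes limma called between 0 and 685, the latter with normexp and loess, and 520 with normexp alone, 359 with no background subtraction, 225 with both channels well above background and 128 with loess. With the cell line as replicate block 0 members were called, and leaving out each array in turn gave 0 members each time. The cause of these shifts was not tested. Dim spots such as those of RSAD2, TRIM22, RTP4 and IFI44L limit the size of their ratios.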
